A study of Homo sapiens with 24 samples.

Results

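The question addressed was how the effect of the microRNA miR-497-5p on the transcripts of H2052 cells at 12 h compared with its effect at 72 h. H2052 is a human line derived from a mesothelioma of the pleura, the membrane around the lung. Cells received a 20 nM dose of a mimic biotinylated at the 3′ end, either miR-497-5p (miR-497-5p-RE in the labels, which leave the suffix unexplained) or a scrambled control, and all groups share the lipid transfection. The 12 RNA-seq libraries, of 24 libraries in all, form 4 groups of 3, namely control at 12 h, miR-497-5p at 12 h, control at 72 h and miR-497-5p at 72 h. The other 12 libraries hold RNA retained by streptavidin beads through the biotin (the pull-down) and serve below as a separate readout. All values come from 1 cell line and 1 dose.

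For each of 17335 genes 3 quantities were estimated on the log2 scale, namely the effect at 12 h (miR-497-5p over control), the effect at 72 h, and the difference of differences, which is the effect at 72 h minus the effect at 12 h. The effects at 12 h and at 72 h share no library. Calls required an adjusted p under 0.05 in edgeR's quasi-likelihood test, with Benjamini-Hochberg adjustment over all genes tested, and every adjusted p below for RNA-seq comes from that fit. Opposite genes were called at both times with opposite signs, lasting genes were called at both times with the same sign, and passing genes were called at 12 h, not at 72 h, with a called difference of differences. Levels are CPM (counts scaled to a common library size after TMM normalization). Errors of log2 fold changes are standard errors from the fit, with 3 libraries per group and a spread estimated over all 12 libraries of the assay. They do not measure the scatter within a single group.

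A microRNA is loaded into an Argonaute protein and guides it to messenger RNAs, mostly through pairing between its seed, bases 2 to 8 counted from its 5′ end, and the 3′ UTR (the untranslated end of the message), which lowers the amount and the translation of the target. Members of the miR-15/16 family share a seed and are known for repressing genes of the G1 phase of the cell cycle, such as CCNE1, CDK6 and CCND1. An effect that is direct has its target site in the message, while later effects also pass through the proteins whose messages changed.

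The guide and 2 of its relatives are shown because the shared seed sets the target site. Sequences are from RefSeq (GRCh38.p14), the capitals mark the seed, and miR-497-5p lies at chr17:7017979-7017999 on the minus strand.
hsa-miR-497-5p: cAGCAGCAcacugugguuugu
hsa-miR-16-5p: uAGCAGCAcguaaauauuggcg
hsa-miR-195-5p: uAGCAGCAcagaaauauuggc

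The sites below stand for 3 courses over time that are described in turn: CCNE1, CDC25A, WEE1 and EPB41L4B were lower at both times, SMURF2 and MIB1 were lower at 12 h and higher at 72 h, and CCND1 was lower at 12 h only. Capitals mark the match to the seed. The match TGCTGCT is called a 7mer-m8 site, and TGCTGCTA, with an A after the match, an 8mer site. Sites were read from the message strand of the GRCh38 genome in 3′ UTRs of GENCODE release 44, and the coordinates are those of the capitals. A match is a description of the letters and not a measured binding site.
CCNE1, chr19:29824024-29824031, plus strand: gtgcgtgctcccgaTGCTGCTAtgg
CDC25A, chr3:48158264-48158271, minus strand: tgtggtactggggcTGCTGCTAttt
WEE1, chr11:9589146-9589153, plus strand: ttgccttgtgaattTGCTGCTAttt
EPB41L4B, chr9:109173435-109173442, minus strand: actcttataaatagTGCTGCTAtga
SMURF2, chr17:64544081-64544087, minus strand: aaaagtggagatttTGCTGCTtta
MIB1, chr18:21866016-21866023, plus strand: gtttggggattcatTGCTGCTAgat
CCND1, chr11:69653315-69653322, plus strand: tctttcacattgttTGCTGCTAttg

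RNA-seq libraries held 21561816 to 30602007 counts. Some 12 h libraries held transcripts of other tissues. The summed level of 29 squamous epithelium markers, in CPM of all counts without TMM, was 921, 865 and 346 in the 12 h controls, 1166, 162 and 295 with miR-497-5p at 12 h, and 157 to 182 in the 6 libraries at 72 h, where 13 to 16 of the markers were at 0 and KRT10, a keratin, made up most of the sum. The summed level of 8 blood markers was 592, 482 and 4.93 in the 12 h controls, 9.92, 488 and 3.74 with miR-497-5p at 12 h, and at most 2.24 at 72 h. At 12 h HBB, a haemoglobin chain, held most of it as group means (306 CPM in controls and 144 with miR-497-5p, after TMM). At 72 h HBB was at 0.353 and 0.137 CPM, below CD79A, another of the 8, at 1.19 and 1.05. Control replicates 1 and 2 and miR-497-5p replicates 1 and 2 at 12 h thus stand apart, with over 400 CPM of either list. The replicate 3 libraries at 12 h were not free of squamous transcripts. They held 346 CPM (control) and 295 CPM (miR-497-5p), with 0 and 1 of the markers at 0. Of the 29 squamous markers, 8 were called lower with miR-497-5p at 12 h and none higher, against 5.3% and 7.25% of all genes tested. Part of this foreign signal therefore differs between the arms at 12 h. Its part in the results was not tested. The counts of the opposite and lasting classes, and of most lists described by them, are also given with the 12 h arms reduced to control replicate 3 and miR-497-5p replicate 3. That setting leaves out the libraries over 400 CPM but does not remove the squamous signal. Among markers of the lining of the lung, MSLN (50.2 to 71.4 CPM as group means) and WT1 (10.7 to 20.8) were present and CALB2 was near 1 to 2 CPM. Nothing in the labels shows that replicates came from separate cultures, so the p-values reflect spread between samples that may be technical.

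Effects at the 2 times showed almost no relation across genes. At 12 h miR-497-5p raised 1256 genes (7.25% of those tested) and lowered 919 (5.3%), and at 72 h it raised 4835 (27.9%) and lowered 5128 (29.6%). The difference of differences was called higher for 3902 genes (22.5%) and lower for 4549 (26.2%), 48.8% of genes in all. Across all 17335 genes Pearson's r between the effects at 12 h and at 72 h was 0.027 and Spearman's rho 0.008, which describes genes and not independent replicates. Among the 1715 genes called at both times, 898 (5.18% of all tested) had opposite signs and 817 (4.71%) the same sign. A further 6488 genes were called at 72 h only with a called difference of differences, and 267 (1.54%) were passing. Scaling by library totals in place of TMM gave 722 higher and 1746 lower genes at 12 h and 3808 higher and 6137 lower at 72 h, so the split between directions depends on the scaling. At 12 h 711 genes were higher and 616 lower with only replicate 3 of each arm there, and 590 were lower without control replicate 2.

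**Figure D1:**
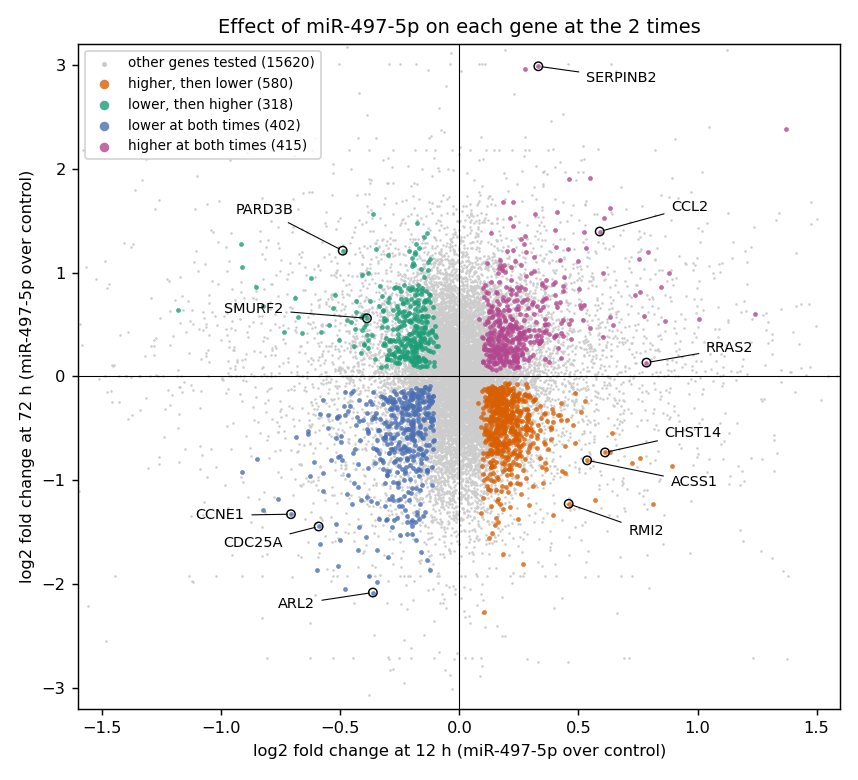
Each point is a gene, with its log2 fold change (miR-497-5p over control) at 12 h on the horizontal axis and at 72 h on the vertical axis, and colours mark the opposite and lasting classes with their gene counts. The 4 coloured classes hold 318 to 580 genes each, their effects at 12 h are mostly small, and 147 genes, 4 of them in a coloured class, lie outside the axes.

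Opposite genes comprised 580 that were higher at 12 h and lower at 72 h (3.35% of genes tested) and 318 that were lower at 12 h and higher at 72 h (1.83%). Their median effects were small at 12 h and larger at 72 h, 0.19 and −0.43 in the higher-then-lower class and −0.20 and 0.43 in the lower-then-higher class. Of the 580 genes, 81 reached 1.2-fold at both times and 6 reached 1.5-fold, and of the 318 genes these numbers were 71 and 9. The arms did not overlap at either time for 546 of the 580 and 291 of the 318 genes (19.2% of all genes tested), which the choice of members on the same libraries largely fixes.

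These counts rest on the small effects at 12 h and on how they are scaled. Without the 12 h control replicate 2 they were 375 and 192, without control replicate 3 at 12 h the lower-then-higher count was 179, and with only replicate 3 of each arm at 12 h they were 316 and 196. Library totals gave 378 and 501 in place of 580 and 318. Gene length differed between the classes, with a median of 2586 bases in the higher-then-lower and 8252 in the lower-then-higher class against 4375 over all genes tested. Length and the effect at 12 h had a Spearman's rho of −0.252 across genes. With an offset per library for the trend of counts with length, 335 and 174 genes were opposite, 256 and 143 of them among the 580 and 318.

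Gene lists of energy production, protein synthesis and protein breakdown had many members in the higher-then-lower class. Of 78 measured nuclear genes of the respiratory chain, the enzymes that pass electrons to oxygen and make ATP in mitochondria, 41 were higher at 12 h and lower at 72 h and none the reverse. Of 77 genes of the mitochondrial ribosome 28 followed that course, of 79 cytosolic ribosomal proteins 28, and of 33 proteasome genes (the protease that degrades ubiquitin-tagged proteins) 11, against 3.35% of all genes tested. Median effects at 12 h and 72 h were 0.18 and −0.27 for the respiratory chain, 0.13 and −0.38 for the mitochondrial ribosome and 0.10 and −0.17 for the proteasome, while all genes had medians of 0.01 and 0.00. The counts 41, 28, 28 and 11 in the order just given became 35, 13, 37 and 8 with library totals, 25, 10, 22 and 6 with the length offset and 26, 9, 29 and 4 with only replicate 3 of each arm at 12 h. Without control replicate 2 at 12 h 16 mitochondrial ribosome and 5 proteasome genes followed this course, and without control replicate 1 there 7 proteasome genes did.

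CYC1 (ENSG00000179091), cytochrome c1 of complex III, was at 408, 409 and 406 CPM in the controls and 503, 441 and 465 with miR-497-5p at 12 h, and at 283, 299 and 305 and 141, 138 and 131 at 72 h. Arms were apart at both times, in opposite order. Its effects of 0.20 ± 0.04 (adjusted p = 0.000167) and −1.11 ± 0.04 (adjusted p = 1.09e-24) gave a difference of differences of −1.31 ± 0.05. NDUFS6, a subunit of complex I, went from 0.19 ± 0.04 to −1.06 ± 0.04, and its effect at 12 h was not called with the length offset (0.10, adjusted p = 0.067). The proteasome subunit PSMB3 went from 0.25 ± 0.04 to −0.77 ± 0.04 (difference −1.02 ± 0.06, adjusted p = 2.16e-19).

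Ribosomal proteins were raised almost without exception at 12 h and then parted. At 12 h 76 of 79 were called higher and none lower, against 7.25% and 5.3% of all genes tested. At 72 h 40 were called higher and 29 lower, against 27.9% and 29.6%. Thus 28 were higher and then lower, 38 higher at both times and 10 higher at 12 h only, against 3.35%, 2.39% and 0.958%. The median effect fell from 0.22 to 0.07 (from 0.17 to −0.04 with library totals, and from 0.16 to 0.15 with the length offset). RPS27A, which encodes a ribosomal protein fused to ubiquitin, stood at 854, 827 and 872 CPM in the 12 h controls and 1007, 1024 and 1087 with miR-497-5p. At 72 h it stood at 1028, 1052 and 993 in the controls and 720, 718 and 721 with miR-497-5p. Both gaps exceed the spread within arms, with effects of 0.29 ± 0.03 and −0.51 ± 0.03 (difference −0.80 ± 0.04, adjusted p = 1.93e-20). RPL39 and RPLP0, both of the large subunit, followed it with differences of −0.84 ± 0.05 and −0.58 ± 0.03. Ribosomal protein genes have processed copies in the genome, and the labels do not say how reads shared with such copies were counted. In bulk samples fewer cells of a kind and less RNA per cell cannot be told apart, here and below.

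Outside these lists the largest higher-then-lower changes were in genes of varied function. CHST14 (ENSG00000169105, chr15:40470984-40473158), a sulfotransferase that modifies dermatan sulfate, was at 24.6, 27.2 and 26.6 CPM in the 12 h controls and at 44.5, 37.6 and 38.0 with miR-497-5p. By 72 h controls were at 32.6, 36.2 and 34.7 CPM and treated libraries at 20.5, 20.3 and 21.5. The arms traded places without overlap, with effects of 0.61 ± 0.07 and −0.73 ± 0.07 and a difference of −1.34 ± 0.10 (adjusted p = 3.48e-16). ACSS1 (ENSG00000154930), a mitochondrial enzyme that makes acetyl-CoA from acetate, was at 21.4, 20.5 and 21.8 CPM in controls and 32.2, 31.3 and 29.1 with miR-497-5p at 12 h, and at 23.9, 24.9 and 26.3 and 14.5, 15 and 13.4 at 72 h. Its effects of 0.54 ± 0.06 and −0.81 ± 0.07 gave the same difference, −1.34 ± 0.10.

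SLC25A24, a carrier of ATP-Mg and phosphate in the inner mitochondrial membrane, rose by 0.57 ± 0.09 and then was lower by −1.19 ± 0.12. RMI2, a subunit of the complex that dissolves recombination intermediates with the BLM helicase, was at 18.9, 19.5 and 20.3 CPM in controls and 30.5, 27.2 and 23.2 with miR-497-5p at 12 h, and at 18.7, 23.4 and 19.9 and 7.87, 9.10 and 9.51 at 72 h. Its effect at 12 h was 0.46 ± 0.09, and with only replicate 3 of each arm it was 0.20 and not called (adjusted p = 0.372). FAM78B, SLC7A6OS, FAM131C and the divergent transcript TRIM8-DT completed the named genes of this course, with effects at 12 h of 0.43 to 0.81 and at 72 h of −0.73 to −1.22. With only replicate 3 of each arm FAM78B, SLC7A6OS and FAM131C were not called at 12 h (0.40 to 0.54, adjusted p = 0.12 to 0.237). FAM78B also lost that call without control replicate 2 or 3 or miR-497-5p replicate 1 at 12 h (0.39 to 0.56), and FAM131C without miR-497-5p replicate 1 (0.31). The call of TRIM8-DT at 12 h had an adjusted p of 0.0471. It was lost with the length offset (0.71, adjusted p = 0.0805), without any 1 of the 3 controls or miR-497-5p replicate 2 at 12 h, and without any library at 72 h but control replicate 1 (0.74 to 0.93).

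In the lower-then-higher class, SMURF2 (ENSG00000108854), a ubiquitin ligase that acts on TGF-β receptors and SMAD proteins and a published target of the family, was at 280, 278 and 281 CPM in the 12 h controls and at 213, 217 and 211 with miR-497-5p. The levels at 72 h were 166, 161 and 164 CPM in the controls and 236, 246 and 243 with miR-497-5p. Here the controls themselves were lower at 72 h than at 12 h, and the arms traded order, with effects of −0.39 ± 0.03 and 0.56 ± 0.03 (difference 0.95 ± 0.05, adjusted p = 1.55e-21). CCND3, the cyclin D3 partner of CDK4 and CDK6, was another published target of this course, at −0.27 ± 0.05 and 0.19 ± 0.05. Both were named after their values were seen.

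MIB1, a ubiquitin ligase needed for Notch ligands to signal, was at 21.0, 23.0 and 21.6 CPM in controls and 12.2, 17.5 and 14.9 with miR-497-5p at 12 h, and at 18.7, 19.4 and 17.2 and 23.8, 26.7 and 27.5 at 72 h. Its effects were −0.55 ± 0.09 and 0.50 ± 0.09, of nearly equal size. FBXO21, a subunit of a ubiquitin ligase, was at 26.5, 27.1 and 27.3 against 19.8, 19.5 and 20.5 CPM at 12 h and at 15.2, 15.4 and 16.5 against 21.0, 21.6 and 21.8 at 72 h. These are effects of −0.44 ± 0.06 and 0.45 ± 0.07 (difference 0.89 ± 0.09, adjusted p = 3.15e-11).

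MIGA1, a regulator of mitochondrial fusion, PARD3B, a cell polarity protein, ITGB8, an integrin chain, SOX6, a transcription factor, and ELOVL7, an enzyme that lengthens fatty acids, had effects at 12 h of −0.52, −0.49, −0.47, −0.46 and −0.43 and at 72 h of 0.78, 1.21, 0.54, 0.53 and 0.72. Their levels were low, between 2.43 and 12.6 CPM in every library, and their calls at 12 h were less firm. With only replicate 3 of each arm at 12 h MIGA1 (−0.36, adjusted p = 0.251) and PARD3B (−0.55, adjusted p = 0.0878) were not called, and with the length offset SOX6 was not (−0.36, adjusted p = 0.127). Leaving out 1 library at 12 h ended the calls of PARD3B (control replicate 2 or miR-497-5p replicate 3) and ITGB8 (the same libraries), of ELOVL7 (control replicates 1 or 3, miR-497-5p replicates 1 or 3) and of SOX6 (any control, miR-497-5p replicate 3), at effects of −0.33 to −0.47.

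The 2 genes of the lower-then-higher class that changed at least 2-fold at both times were KRT24, a keratin, and PRSS27, a serine protease, both below the 5 CPM minimum for named genes and named after their values were seen. PRSS27 was at 2.89, 2.81 and 2.00 CPM in the 12 h controls and 0.633, 0.139 and 0.312 with miR-497-5p. KRT24 was at 1.01, 0.694 and 0.441 CPM in the 12 h controls and at most 0.0844 with miR-497-5p. As 5 of its 6 libraries at 72 h were at 0, its call at 72 h rests on a single library. Both moved at 12 h in the direction of the squamous markers that were called lower there, such as TGM3 (−3.51, adjusted p = 1.79e-09) and CRNN (−7.81, adjusted p = 2.37e-20), and the part of foreign RNA in their values was not tested.

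**Figure D2:**
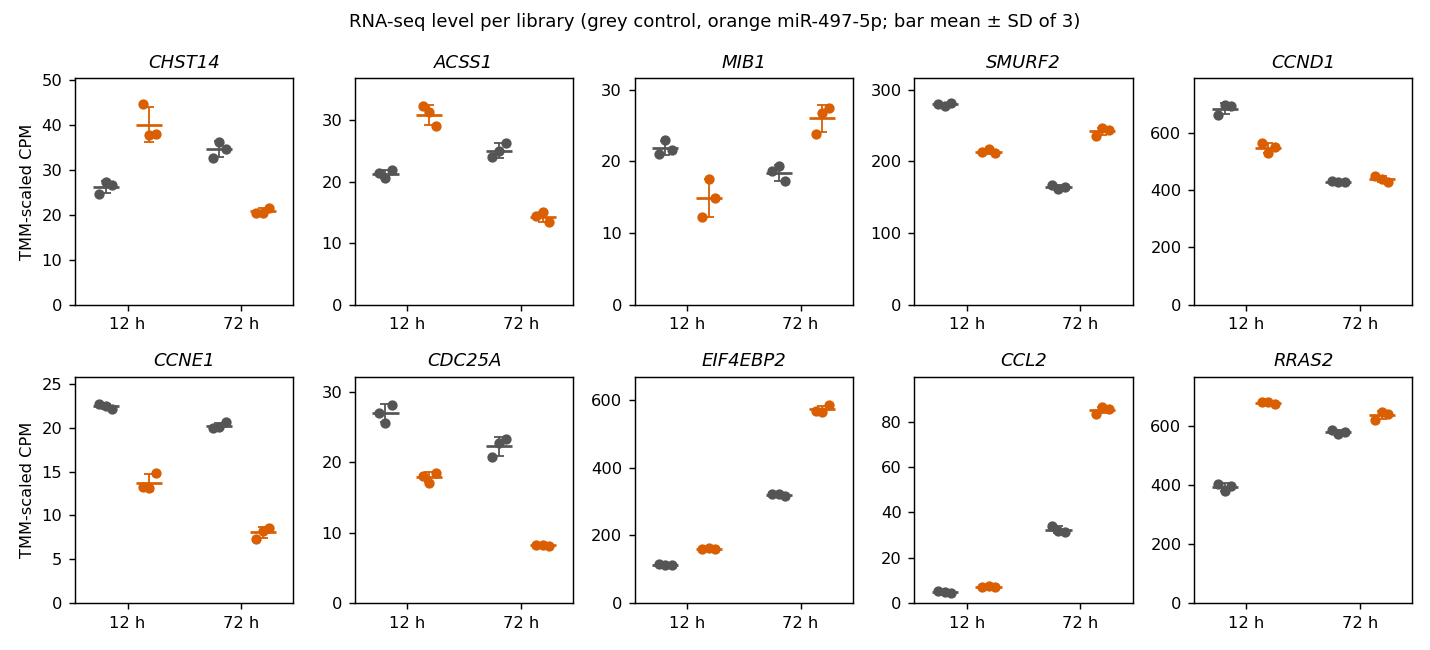
Each panel shows the TMM-scaled CPM of 1 gene in the 12 RNA-seq libraries, control in grey and miR-497-5p in orange, with the mean and SD of each group of 3. CHST14 and ACSS1 are above control at 12 h and below it at 72 h, MIB1 and SMURF2 the reverse, CCND1 is below control at 12 h only, CCNE1 and CDC25A are below and EIF4EBP2 and CCL2 above at both times, and RRAS2 is far above control at 12 h and close to it at 72 h.

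Lasting genes comprised 402 that were lower at both times (2.32% of genes tested) and 415 that were higher at both times (2.39%). Of the 402 lower genes, 245 were lowered further at 72 h by the test of the difference of differences, 5 less and 152 were not told apart, and of the 415 higher genes 216 were raised further, 12 less and 187 were not told apart. Median effects were −0.23 and −0.54 in the lower class and 0.21 and 0.42 in the higher class, and 135 and 119 genes reached 1.2-fold at both times. Library totals gave 860 and 213 in place of 402 and 415, all 402 and all 213 shared with the main classes. Only replicate 3 of each arm at 12 h gave 291 and 266.

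Among the genes that were lower at both times, CCNE1 (ENSG00000105173, chr19:29811991-29824312), cyclin E1, which drives entry into S phase, was at 22.7, 22.5 and 22.2 CPM in the 12 h controls and at 13.2, 13.1 and 14.8 with miR-497-5p. The controls at 72 h were at 20.0, 20.1 and 20.6 CPM and the treated libraries at 7.31, 8.25 and 8.59. The arms were far apart at both times, with effects of −0.71 ± 0.07 and −1.33 ± 0.08, and the loss deepened by −0.62 ± 0.11 (adjusted p = 9.14e-06). CDC25A, the phosphatase that activates CDK2, was at 27, 25.6 and 28.2 CPM in controls and 18.0, 17.1 and 18.5 with miR-497-5p at 12 h, and at 20.8, 22.7 and 23.3 and 8.18, 8.20 and 8.11 at 72 h. It deepened from −0.59 ± 0.07 to −1.44 ± 0.08 (difference −0.85 ± 0.11, adjusted p = 2.48e-09).

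CDK6, the kinase partner of D cyclins, was at 43.0, 46.6 and 50.4 CPM in controls and 27.5, 29.6 and 33.4 with miR-497-5p at 12 h, and at 73.6, 78.3 and 74.8 and 38.6, 38.5 and 39.6 at 72 h. Its effect went from −0.63 ± 0.06 to −0.96 ± 0.06 while its level rose in both arms. WEE1 (ENSG00000166483), a kinase that holds CDK1 inactive and a gene that the series names, was at 31.5, 35.7 and 34.3 against 22.8, 24.4 and 26.1 CPM at 12 h and at 18.7, 18.2 and 18.9 against 9.87, 11 and 8.21 at 72 h. It went from −0.47 ± 0.07 to −0.95 ± 0.09 (difference −0.48 ± 0.11, adjusted p = 0.000304). By contrast PKMYT1, the related kinase of CDK1 that the series names beside it, did not pass at 12 h (0.02 ± 0.07, adjusted p = 0.874) and was lowered by −2.31 ± 0.10 at 72 h, 1 of the largest differences of differences (−2.34 ± 0.13). CDK4 behaved alike, at −0.04 ± 0.04 (adjusted p = 0.509) and −2.03 ± 0.05.

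Of 35 published targets of the family, 12 were lower at both times (ANLN, FGFR1, CCNE1, CDK6, IGF1R, CHEK1, CDC25A, WEE1, SMAD3, FASN, BCL2 and ARL2), 3 were opposite and 3 were lowered at 12 h only, against 2.32%, 1.83% and 0.583% of all genes tested, and none was higher at both times. The count of 12 was 16 with library totals, 10 with the length offset and 11 with only replicate 3 of each arm at 12 h. ARL2, a small GTPase that acts in tubulin folding and has 4 site matches in its 3′ UTR, deepened most among those named, from −0.36 ± 0.04 to −2.08 ± 0.05 (difference −1.72 ± 0.07, adjusted p = 1.11e-25).

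Among genes outside the cell cycle, EPB41L4B, a protein that links membrane and cytoskeleton, held its effect, at 65.1, 66.3 and 64.8 against 39.1, 41.7 and 40.9 CPM at 12 h and 56.6, 61.6 and 60.2 against 38.1, 40.2 and 41.0 CPM at 72 h. Its effects of −0.69 ± 0.05 and −0.58 ± 0.05 were not told apart (difference 0.11 ± 0.07, adjusted p = 0.227). PPM1H, a phosphatase that acts on RAB proteins, went from −0.76 ± 0.10 to −1.18 ± 0.10, and its difference (−0.42 ± 0.14) was not called with only replicate 3 of each arm at 12 h (−0.38, adjusted p = 0.0979) or without miR-497-5p replicate 2 at 72 h (−0.29, adjusted p = 0.0977). SPRYD3 and TPRG1L deepened by −1.27 ± 0.11 and −1.02 ± 0.09, and the transcription factor ZNF367 by −0.53 ± 0.13. Of 13 measured genes of the microRNA pathway, AGO1 and AGO2, the Argonaute proteins that carry the guide, and TARBP2, a partner of Dicer, were lower at both times, against 2.32% of all genes tested. DROSHA, which cuts the primary transcript, was lower and then higher (−0.21 ± 0.05 and 0.17 ± 0.05), a course of 1.83% of all genes tested. TARBP2 went from −0.20 ± 0.06 to −1.44 ± 0.07, and its call at 12 h was lost without control replicate 3 or miR-497-5p replicate 2 or 3 there (−0.17 to −0.19, adjusted p = 0.0706 to 0.097).

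Among the genes that were higher at both times, EIF4EBP2 (ENSG00000148730), a repressor of cap-dependent translation, was at 114, 112 and 113 CPM in the 12 h controls and 159, 163 and 158 with miR-497-5p. The 72 h controls were at 321, 322 and 315 CPM and the treated libraries at 568, 565 and 584. The level rose with time in both arms and the gap widened, from 0.50 ± 0.03 to 0.84 ± 0.03 (difference 0.34 ± 0.05, adjusted p = 2.06e-08). CCL2, a chemokine that attracts monocytes, was at 5.07, 4.93 and 4.17 against 7.01, 7.43 and 6.83 CPM at 12 h and at 34.2, 32.0 and 31.2 against 83.7, 86.5 and 85.7 at 72 h, with effects of 0.59 ± 0.09 and 1.39 ± 0.06. PNRC1, a nuclear receptor coactivator, went from 0.52 ± 0.07 to 1.39 ± 0.06, and ANKRD1, a stretch-responsive cofactor and a known target of YAP1, from 0.63 ± 0.09 to 1.62 ± 0.09.

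B4GALT6, an enzyme that makes lactosylceramide, was raised by 0.74 ± 0.10 and 0.78 ± 0.09 and its effects were not told apart (difference 0.04 ± 0.14, adjusted p = 0.82). CDH15, a cadherin of muscle cells, MHENCR, a long noncoding RNA, and CEND1, a neuronal protein, had effects of 0.61, 0.52 and 0.50 at 12 h, which were not called with only replicate 3 of each arm there (adjusted p = 0.51, 0.656 and 0.211). Leaving out 1 library at 12 h also ended that call for CDH15 (control replicate 3, miR-497-5p replicate 1 or 2), MHENCR (control replicate 2) and CEND1 (control replicate 2 or 3, miR-497-5p replicate 1 or 3), at effects of 0.38 to 0.57. CEND1 was not called at 12 h with library totals or the length offset either (adjusted p = 0.0521 and 0.111). The largest widening was in MMP1, a collagenase, and SERPINB2, an inhibitor of urokinase. MMP1 was at 167, 170 and 177 against 203, 204 and 216 CPM at 12 h and at 19.1, 21.0 and 19.9 against 146, 157 and 162 CPM at 72 h, so that control cells lost the transcript over time and treated cells mostly kept it. Its effects were 0.28 ± 0.04 and 2.96 ± 0.05 (difference 2.68 ± 0.06, adjusted p = 3.47e-33), and those of SERPINB2 0.33 ± 0.06 and 2.99 ± 0.07.

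Inflammatory mediators and the mitochondrial genome were the lists with many members higher at both times beside ribosomal proteins. Of 20 measured inflammatory genes 6 were so (CCL2, IL1A, IL1B, IL6, CXCL3 and CXCL8) against 2.39% of all genes tested, and 4 with library totals, 5 with the length offset and 5 with only replicate 3 of each arm at 12 h. IL1B, a cytokine, was at 51.1, 55.9 and 54.1 against 59.0, 61.6 and 62.4 CPM at 12 h and at 91.7, 91.8 and 93.4 against 294, 299 and 294 CPM at 72 h. The gap was narrow at 12 h (0.18 ± 0.04, adjusted p = 0.00136) and wide at 72 h (1.68 ± 0.04). CXCL8, a neutrophil chemokine, went from 0.46 ± 0.07 to 1.90 ± 0.07.

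Of 13 protein-coding genes of the mitochondrial genome 9 were higher at both times, against 2.39% of all genes tested, with medians of 0.20 and 0.73. By contrast 41 of the 78 nuclear genes of the same respiratory chain were higher and then lower, against 3.35%. The count of 9 was 5 with library totals, 4 with the length offset and 12 with only replicate 3 of each arm at 12 h. MT-ND2, a complex I subunit, was at 1691, 1669 and 1584 against 1846, 2009 and 1957 CPM at 12 h and at 2847, 2695 and 2718 against 5934, 5905 and 6029 CPM at 72 h. Its effects were 0.23 ± 0.03 and 1.11 ± 0.03 (difference 0.88 ± 0.04, adjusted p = 9e-22), the opposite of CYC1 and NDUFS6 at 72 h.

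Of 22 genes of glycolysis and hypoxia 5 were higher at both times (ENO1, GAPDH, LDHA, ALDOA and BNIP3), against 2.39% of all genes tested. TPI1 was higher and then lower (0.14 ± 0.03 and −0.58 ± 0.03), with no call at 12 h under the length offset (0.08, adjusted p = 0.0746). The count of 5 was 2 with library totals, 3 with the length offset and 1 with only replicate 3 of each arm at 12 h, and 2 and 3 without control replicate 1 or miR-497-5p replicate 1 at 12 h. GAPDH, a gene that the series names and a common reference for quantification, was at 2885, 2890 and 2896 CPM in the 12 h controls and 3282, 3033 and 3101 with miR-497-5p. At 72 h it was at 3679, 3640 and 3677 against 6073, 5906 and 5846 CPM. Its effect was small at 12 h (0.12 ± 0.03, adjusted p = 0.00107, and 0.07, adjusted p = 0.0741, with the length offset) and 0.70 ± 0.03 at 72 h. Of the 13 measured mesothelial markers, VIM, KRT8 and KRT18 were higher at both times and KRT7 and THBD were higher and then lower, against 2.39% and 3.35% of all genes tested. VIM, the intermediate filament of mesenchymal cells, went from 0.11 ± 0.03 to 1.09 ± 0.03 and was not called at 12 h with library totals (0.07, adjusted p = 0.0556) or with only replicate 3 of each arm (0.09, adjusted p = 0.12).

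**Figure D3:**
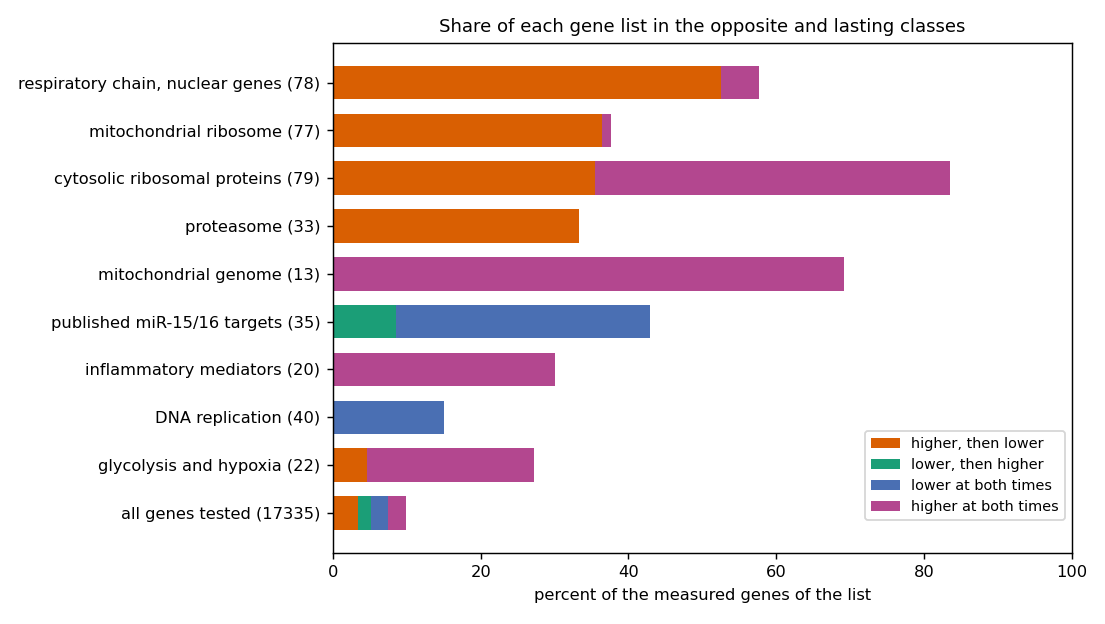
Bars give the percent of the measured genes of each list (their number in brackets) that fall in the opposite classes (orange and green) and the lasting classes (blue and purple), with all 17335 genes tested at the bottom. Higher-then-lower genes fill much of the lists of nuclear respiratory chain, mitochondrial ribosome and proteasome genes. Lower-at-both-times genes fill much of the published targets, and higher-at-both-times genes much of the mitochondrial genome. Ribosomal proteins are split, with 48.1% higher at both times and 35.4% higher and then lower.

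Passing genes comprised 166 raised (0.958% of genes tested) and 101 lowered (0.583%) at 12 h only. C3orf52, which encodes a membrane protein, was at 8.33, 7.04 and 8.58 against 15.3, 14.7 and 14.3 CPM at 12 h and at 10.7, 9.57 and 10.9 against 9.05, 9.26 and 9.66 CPM at 72 h. The arms were apart at 12 h and overlapped at 72 h, with effects of 0.88 ± 0.10 and −0.15 ± 0.10 (difference −1.03 ± 0.14, adjusted p = 2.71e-08), and library totals called it lower at 72 h (−0.26, adjusted p = 0.0293). CEBPB, a transcription factor of inflammation and differentiation, was at 68.9, 54.7 and 55.9 against 116, 86.6 and 79.4 CPM at 12 h, an effect of 0.65 ± 0.15, and its difference of −0.67 ± 0.20 (adjusted p = 0.0246) was not called with the length offset (−0.49, adjusted p = 0.0636). GPS2 and BLOC1S4 were raised by 0.69 ± 0.18 and 0.67 ± 0.16 at 12 h. The difference of GPS2 was not called with the length offset (−0.58, adjusted p = 0.0762) and BLOC1S4 was called lower at 72 h by DESeq2 (−0.35, adjusted p = 0.047), with library totals (−0.47, adjusted p = 0.013), with the replicate block (−0.36, adjusted p = 0.00875), without a filter (−0.39, adjusted p = 0.00186) and with only replicate 3 of each arm at 12 h (−0.37, adjusted p = 0.00106). Single libraries mattered for all 3 genes. The call of CEBPB at 12 h was lost without control replicate 2 or 3 there (0.59 and 0.60), and its difference also without control replicate 3 or miR-497-5p replicate 2 or 3 at 72 h (−0.63 to −0.66). For BLOC1S4 the call at 12 h was lost without control replicate 2 there (0.61, adjusted p = 0.0522), and an effect of −0.36 at 72 h was called without control replicate 1 or 3 or miR-497-5p replicate 1 or 3 at 12 h. GPS2 lost its call at 12 h without control replicate 2 or 3 or miR-497-5p replicate 2 there or any library at 72 h (0.58 to 0.74), and its difference without those 2 controls or any library at 72 h (−0.63 to −0.78).

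Among genes lowered at 12 h only, CCND1 (ENSG00000110092, chr11:69641156-69654474), cyclin D1 and a gene that the series names, was at 663, 699 and 696 CPM in the 12 h controls and at 565, 529 and 553 with miR-497-5p. At 72 h it was at 434, 428 and 429 against 450, 440 and 430 CPM. Arms were apart at 12 h and met at 72 h, with effects of −0.32 ± 0.03 and 0.03 ± 0.03 and a difference of 0.35 ± 0.04 (adjusted p = 3.68e-09). Its class depends on the setting, since at 72 h it was called higher with the length offset (0.09, adjusted p = 0.0131) and with the minimum mean of 5 CPM (0.08, adjusted p = 0.0131), and lower with library totals (−0.07, adjusted p = 0.023). PLSCR4, a phospholipid scramblase, was at 7.53, 7.80 and 8.02 against 3.34, 4.64 and 3.87 CPM at 12 h and at 4.31, 4.76 and 4.79 against 3.99, 4.39 and 4.39 CPM at 72 h. It went from −0.97 ± 0.13 to −0.12 ± 0.14. INSR, the insulin receptor, went from −0.56 ± 0.11 to 0.16 ± 0.12, and CMTM4, a membrane protein that stabilises PD-L1, from −0.56 ± 0.05 to −0.06 ± 0.05 (−0.17 and called with library totals, adjusted p = 0.00146).

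RRAS2, a RAS-related GTPase, had an early rise that shrank. It was at 405, 379 and 397 CPM in the 12 h controls and at 681, 680 and 675 with miR-497-5p, and at 588, 574 and 580 against 621, 647 and 641 CPM at 72 h. Control cells reached most of the treated level by 72 h. Its effect went from 0.79 ± 0.03 to 0.13 ± 0.03 (difference −0.65 ± 0.04, adjusted p = 1.76e-17), and with library totals it was 0.03 at 72 h and not called (adjusted p = 0.479). Other lasting genes with a smaller effect at 72 h included RPL8, RPL36, RPL38, RPLP2 and TWIST2, a mesenchymal transcription factor, on the higher side, and on the lower side AVL9, TACC1, SRPRA, TVP23B and KIF3B. Those 5 lower genes went from effects of −0.36 to −0.57 at 12 h to −0.15 to −0.23 at 72 h.

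Levels over time differed between the classes. In the higher-then-lower class the median change from 12 h to 72 h was 0.21 in the control arm and −0.46 in the miR-497-5p arm, and in the lower-then-higher class it was −0.16 and 0.55. Both arms moved alike in direction in the lasting classes, by −0.19 and −0.55 for lower genes and by 0.78 and 0.99 for higher genes. Library by library, the higher-then-lower class stood at a median log2 of 0.14 to 0.24 over the 12 h controls with miR-497-5p at 12 h, at 0.20 to 0.23 in the 72 h controls and at −0.24 to −0.27 with miR-497-5p at 72 h. These medians share the 12 h controls as their base, and the classes were chosen on the same libraries, so they are a description.

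**Figure D4:**
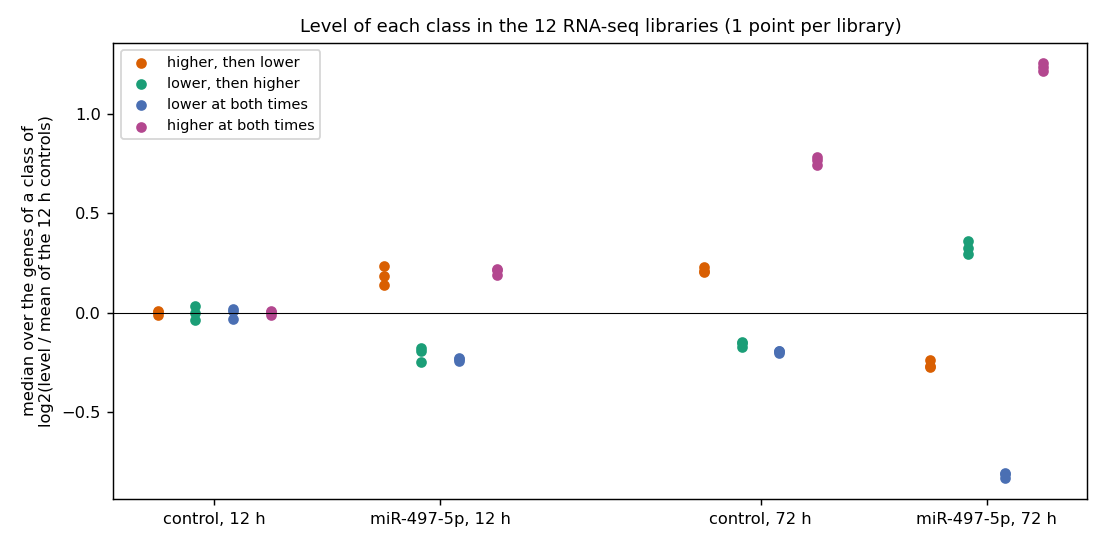
Each point is 1 RNA-seq library and gives the median, over the genes of a class, of the log2 ratio of the level to the mean of the 12 h controls. The 3 libraries of a group lie close together in all 4 classes, the opposite classes trade sides between miR-497-5p at 12 h and at 72 h, and the lasting classes keep their side.

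Sites for the seed were densest in genes that stayed low. Of the 396 protein-coding lasting lower genes with an annotated 3′ UTR, 264 (66.7%) held a 7mer-m8 or 8mer site, against 30.4% of all 13975 protein-coding genes tested. In the lower-then-higher class 174 of 312 (55.8%) held one, in the higher-then-lower class 87 of 567 (15.3%) and in the lasting higher class 47 of 364 (12.9%). The length of the 3′ UTR differed as widely, with medians of 4060 bases in the lower-then-higher, 2725 in the lasting lower, 672 in the higher-then-lower and 961 in the lasting higher class, against 1826 over all. Per 1000 bases of 3′ UTR the lasting lower class held 0.373 sites, the lower-then-higher class 0.203, the higher-then-lower class 0.187 and the lasting higher class 0.0968, against 0.191 over all.

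Genes lowered at 12 h and then turned higher thus held sites at a density near that of all genes, and genes lowered at both times at a higher density. In genes lowered at 12 h only the density was 0.309. Over the alternatives of scaling, filter, tool, block, length offset and libraries the density was 0.337 to 0.415 in the lasting lower class and 0.170 to 0.215 in the lower-then-higher class, so their ranges did not overlap. In genes lowered at 12 h only it was 0.207 to 0.356, which overlaps both. The alternatives refit the same libraries and share members, so these ranges do not measure sampling spread. An 8mer was present in 77 (19.4%) of the lasting lower genes, 48 (15.4%) of the lower-then-higher genes and 5.8% of all. Within the lasting lower class the 264 genes with a site had median effects of −0.24 and −0.60 and the 132 without one −0.20 and −0.44. Within the lower-then-higher class medians were −0.21 and 0.43 with a site and −0.19 and 0.42 without one. MIB1, with 1 8mer and 1 7mer-m8 in a 3′ UTR of 6287 bases, was higher at 72 h, and CDC25A, with the same number of each in 1799 bases, stayed low. Other named genes went the other way. CDK6, with only 7mer-m8 sites in 10219 bases, stayed low, and CCND3, with a 7mer-m8 in 1006 bases, was higher at 72 h.

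**Figure D5:**
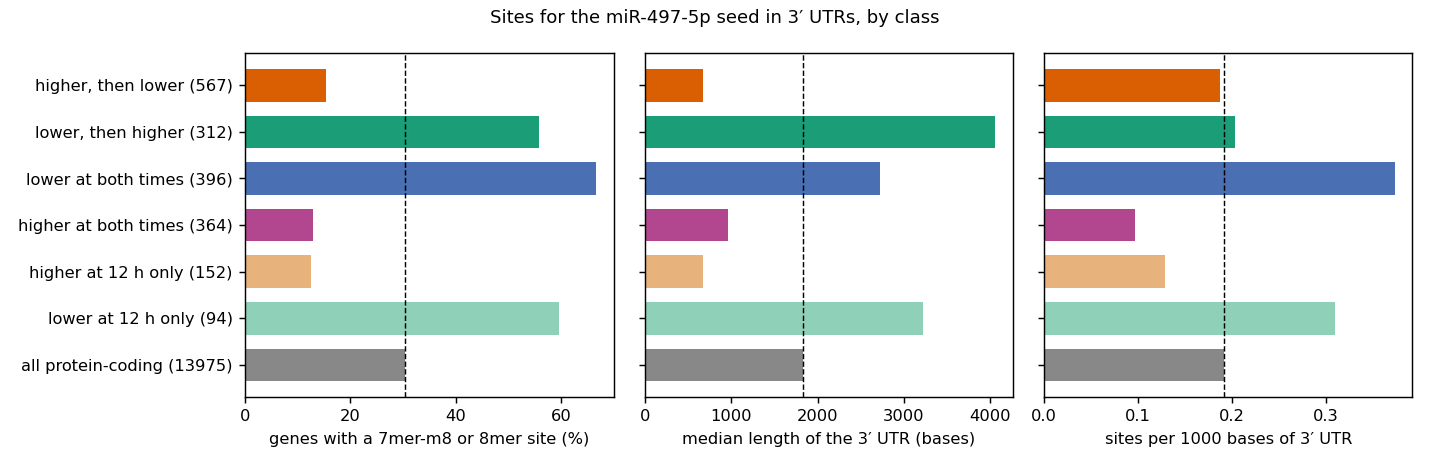
Bars give, for protein-coding genes of each class (number in brackets), the percent with a 7mer-m8 or 8mer site in the 3′ UTR, the median length of the 3′ UTR and the number of sites per 1000 bases, with dashed lines at the value of all protein-coding genes tested. Lower-then-higher genes have a high share of genes with a site (55.8%) and long 3′ UTRs (4060 bases) but a density (0.203) near that of all genes (0.191), unlike genes lower at both times (0.373).

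The pull-down, a readout that the classes did not use, was fitted alone over its 12 libraries of 8262425 to 30650982 counts. At 12 h it called few genes, 57 higher (0.326% of 17477 tested) and 47 lower (0.269%) with miR-497-5p. Of the 402 lasting lower genes 9 were called higher in it (2.24%), namely BRPF3, CCNE1, CDC37L1, CDK6, DDR1, EZR, HSPA8, WEE1 and WNT5B, against 0.348% of the 16383 genes tested in both assays. Of the 318 lower-then-higher genes 3 were (EIF3A, RBMS1 and SPRED1) and of the 580 higher-then-lower genes 2 (CACUL1 and RPLP0). CCNE1 was higher in the 12 h pull-down by 1.45 ± 0.19 (adjusted p = 0.00022 in the fit of the pull-down) and WEE1 by 1.71 ± 0.30 (adjusted p = 0.00538), whereas SMURF2 (0.03 ± 0.10, adjusted p = 0.974) was not called.

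At 72 h, when the pull-down called 1776 genes higher (10.2%) and 2194 lower (12.6%), it moved with the RNA-seq effect at that time. It called 312 of the 580 higher-then-lower genes lower (53.8%) and 139 of the 318 lower-then-higher genes higher (43.7%). It called 181 of the 402 lasting lower genes lower (45%) and 11 higher, and 156 of the 415 lasting higher genes higher (37.6%) and 43 lower. CCNE1 (0.39 ± 0.19, adjusted p = 0.144) and WEE1 (0.29 ± 0.32, adjusted p = 0.604) were not called at 72 h, and SMURF2 was higher by 1.22 ± 0.10 (adjusted p = 1.73e-09). RNA that beads retain from a sample can depend on how much of a transcript the sample holds, and the part of the level in these pull-down values was not tested here.

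Other lists differed between the times mainly through calls at 72 h. Of 40 DNA replication genes 6 were lower at both times (MCM10, GINS1, MCM4, FEN1 and POLE among them), against 2.32% of all genes tested. At 72 h 33 were lower, against 29.6%. The 6 became 3, 1 and 2 without control replicate 1, 2 or 3 at 12 h. Of 40 mitosis genes 36 were lower at 72 h, against the same 29.6%. At 12 h 2 mitosis genes were called higher and 4 lower (1 and 12 with library totals, 0 and 4 with the length offset), against 7.25% and 5.3% of all genes tested. The 2 higher genes, CDC20 and PTTG1, were higher and then lower, and TOP2A, a topoisomerase, was lower and then higher (−0.19 ± 0.04 and 0.11 ± 0.04). ANLN, TPX2 and KIF23 were lower at both times, where library totals placed 11 mitosis genes. In the order just given, these courses held 3.35%, 1.83% and 2.32% of all genes tested. Of 20 aminoacyl-tRNA synthetases none was opposite or lasting, against 5.18% and 4.71% of all genes tested, shares that so short a list cannot tell from none. At 72 h 12 of them were called higher and 5 lower, against 27.9% and 29.6%. CKS1B, a CDK subunit, changed at 72 h only, with 219, 211 and 222 against 225, 217 and 229 CPM at 12 h and 77.2, 75.9 and 77.7 against 15.8, 14.4 and 16.3 CPM at 72 h (0.04 ± 0.04 and −2.31 ± 0.05). DUSP6, a phosphatase that restrains ERK, was its counterpart on the higher side, at 0.23 ± 0.12 (adjusted p = 0.22) and 2.72 ± 0.11.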

How the data were processed

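RNA-seq and pull-down libraries were made from poly(A) RNA, per the labels' protocols. The deposited files hold whole-number counts per gene, which the authors obtained, per the submitters' processing notes, by trimming with Trimmomatic 0.36, alignment to GRCh38 with STAR 2.5.2b and featureCounts of Subread 1.5.2. The sources do not state whether strand was used, so overlapping and antisense genes, TRIM8-DT among them, cannot be told apart. Symbols, positions and 3′ UTRs came from GENCODE 44, which held 98.1% of the 57500 gene identifiers.

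Counts were fitted with edgeR 4.0.16 (TMM, filterByExpr, robust quasi-likelihood test) over the 12 RNA-seq libraries, and apart from them over the 12 pull-down libraries. The biological coefficient of variation was 0.0601 and 0.349, so smaller differences escape the pull-down. The RNA-seq fit is the source of the effect at each time and of the difference of differences. The scripts were tested on simulated counts. Replicates of 1 group differed by more than counting error, and by more at 12 h than at 72 h. Between pairs of replicates the chi-square per degree of freedom, near 1 for counting error alone, was 2.97 to 9.05 at 12 h. At 72 h it was 1.76 to 2.84. As the spread was estimated over all 12 libraries, p-values at 12 h may understate the scatter there. Equal replicate numbers showed little sign of pairing, as 1 of 18 same-numbered pairs had a correlation over 0.1. That pair was replicate 3 of the 2 arms at 12 h (0.174), so pairing at 12 h remains possible.

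Named genes are the 6 that the series names. Also named, given a mean of 5 CPM or more and arms apart, are the 8 opposite or lasting genes per direction with the largest smaller effect and the 4 passing genes per direction with the largest effect at 12 h. To these come the 5 largest differences of differences per direction and up to 3 members per gene list with the smallest adjusted p of that difference. Some genes that meet these rules are not reported here. Members and lists were chosen with earlier results of these data known. Alternatives were library totals, RLE scaling, other filters, DESeq2 1.42.0, a replicate block, a length offset, stricter thresholds, each library left out in turn and, added after the data were seen, only replicate 3 of each arm at 12 h. In that last alternative the lone libraries were assumed to vary like the other groups.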

Additional observations from a re-analysis of the deposited data

Results flagged for a closer look

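Genes called at both 12 h and 72 h with opposite signs numbered 580 (higher, then lower) and 318 (lower, then higher). All of them also had a called difference of differences. Among those named, the difference was −2.04 for TRIM8-DT, −1.76 for SLC25A24, −1.69 for RMI2, −1.37 for SLC7A6OS, −1.36 for FAM78B, −1.35 for FAM131C, −1.34 for CHST14 and −1.34 for ACSS1. On the other side it was 1.70 for PARD3B, 1.30 for MIGA1, 1.15 for ELOVL7, 1.05 for MIB1, 1.01 for ITGB8, 0.98 for SOX6 and 0.89 for FBXO21.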

How the results depend on the processing

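The calls at 12 h limit every class, since effects there were small and replicates there differed more than at 72 h. The counts are given in the order higher-then-lower, lower-then-higher, lasting lower and lasting higher, which were 580, 318, 402 and 415. Library totals gave 378, 501, 860 and 213, with 81 passing higher and 201 passing lower genes in place of 166 and 101. The length offset gave 335 and 174 for the opposite classes and 107 passing higher genes, and together with the replicate block 373, 194 and 110. Only replicate 3 of each arm at 12 h gave 316 and 196 for the opposite classes, 266 lasting higher and 101 passing higher genes. A minimum of 1.2-fold at both times gave 81, 71, 135 and 119, and an adjusted p under 0.01 at both times 320, 144, 241 and 246. In these settings the cause was not tested, except that stricter thresholds call fewer genes by construction. Leaving out 1 library gave 375 to 697 higher-then-lower and 179 to 354 lower-then-higher genes, 272 to 521 lasting lower and 300 to 455 lasting higher genes. RLE scaling, either filter and DESeq2 kept all classes within 1.5 times of these counts. The difference of differences kept 3356 to 4004 higher and 3920 to 5027 lower genes over all settings but the single libraries left out, where the ranges were 3593 to 3863 and 4243 to 4551.

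With the replicate number as a block the classes held 662, 347, 434 and 447 genes, and 5 of 12 libraries correlated best with their own number. Of the values for named genes under the alternatives, 7365 kept their side of the threshold, 210 lost and 38 gained the call, and 1 reversed. The reversal was CCND1 at 72 h, at −0.0748 with library totals (adjusted p = 0.023) and 0.03 with TMM. Changes of direction between uncalled values were not counted as reversals. The pull-down counts recomputed (lasting lower genes called higher at 12 h, and each class called at 72 h in the direction of its RNA-seq effect there) stayed within 1.5 times in the settings run.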

Other observations

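Some single members of other lists also changed course. MYC, a transcription factor of growth, was at 135, 136 and 132 against 156, 144 and 146 CPM at 12 h and at 83.7, 84.1 and 86.8 against 40.6, 40.6 and 45.3 CPM at 72 h, with effects of 0.14 ± 0.04 and −1.01 ± 0.05. Its call at 12 h was lost with library totals (0.09, adjusted p = 0.122), with the length offset (0.09, adjusted p = 0.17), with only replicate 3 of each arm (0.14, adjusted p = 0.145) and without control replicate 3 or miR-497-5p replicate 1 there (0.13 and 0.11). BAX, a death-promoting p53 target, went from 0.11 ± 0.03 to −0.47 ± 0.03, and its call at 12 h was also lost with library totals (0.06, adjusted p = 0.236), the length offset (0.04, adjusted p = 0.489), no filter (0.10, adjusted p = 0.0554) and only replicate 3 of each arm (0.10, adjusted p = 0.174), without any control or miR-497-5p replicate 1 at 12 h, and without replicate 2 of either arm at 72 h (0.07 to 0.11). SLC7A5, which imports large amino acids, was at 516, 537 and 550 against 519, 463 and 478 CPM at 12 h, where the arms overlapped, and at 604, 602 and 613 against 184, 177 and 174 CPM at 72 h (−0.14 ± 0.03 and −1.76 ± 0.04), and the call at 12 h was lost without control replicate 3 or miR-497-5p replicate 2 there (−0.11 and −0.10). TUBA1B, an alpha-tubulin whose close copies share reads, stood at 251 to 257 CPM in the 72 h controls and at 51.4 to 53.7 with miR-497-5p (−2.27 ± 0.04). Its small effect at 12 h (0.10 ± 0.03) was not called with library totals, the length offset or only replicate 3 of each arm, nor without any 1 library but miR-497-5p replicates 2 and 3 at 12 h. KRTAP1-5, a hair keratin-associated protein, stood at 4.23 to 4.70 CPM in the 72 h controls and 30.1 to 32.1 with miR-497-5p, with no call at 12 h (−0.06 ± 0.13, adjusted p = 0.848 in the edgeR fit).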
